A study of Homo sapiens with 6 samples.

Results

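The 9 genes described here belong to the machinery that removes or reads DNA methylation and are the dioxygenases TET1, TET2 and TET3, the DNA glycosylases TDG and MBD4, the methyl-CpG binding domain proteins MBD1, MBD2 and MBD3, and the zinc finger protein ZBTB38. They were taken by gene name, and all 9 had a row among the 35974 genes of the deposited table. The samples were 6 RNA-seq libraries of SU-DHL-8, an established line of diffuse large B-cell lymphoma that the labels give as DNMT1 wild type and as lymph node in origin. The control group was 3 libraries treated with the solvent DMSO, and the other 3 libraries were treated with GSK3685032, an inhibitor of the maintenance DNA methyltransferase DNMT1. The treatment labels of inhibitor replicates 2 and 3 end in one digit higher each (GSK3685033 and GSK3685034), while the series design names GSK3685032 only. Dose and time were not stated in the labels. The labels do not tell whether the libraries within a group are separate cultures, and the p-values measure only how far these libraries differ, possibly for technical reasons. All of them come from 1 cell line.

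Methylated cytosine in CpG dinucleotides is copied at replication by DNMT1. TET enzymes oxidise it stepwise to hydroxymethyl-, formyl- and carboxylcytosine, and TDG cuts out the last pair of these, after which base excision repair restores an unmodified cytosine. MBD proteins and some zinc finger proteins bind methylated CpG and recruit repressors. MBD2 and MBD3 are alternative subunits of the nucleosome remodelling and deacetylase complex NuRD. In germinal centre B cells and their lymphomas TET2 is known as a tumour suppressor.

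Library totals were 53846028 to 75304441 estimated counts, with every inhibitor library (at most 56795603) below every DMSO library (at least 57451935). At about 4 counts per read pair the totals correspond to 13461507 to 18826110 pairs. DNMT1 itself measured 32.95 ± 0.690 FPKM (fragments scaled to transcript length and sequencing depth) with DMSO and 12.7 ± 0.774 FPKM with the inhibitor (SD, n = 3 each). Summed over all genes, FPKM was 263351 to 272433 with DMSO and 285240 to 289005 with the inhibitor. All 5 B-cell marker genes examined (MS4A1, CD79A, CD79B, PAX5 and CD22) were at 1 FPKM or more in every library, summing to 824 to 842 FPKM with DMSO and 704 to 756 FPKM with the inhibitor. The markers went both ways: CD79A and CD22 were higher in every inhibitor library than in any DMSO library (means of 192.8 and 294.3 FPKM for CD79A, 9.90 and 15.2 FPKM for CD22), while CD79B (539 and 375 FPKM), PAX5 (76.0 and 42.3 FPKM) and MS4A1 (14.0 and 3.63 FPKM) were lower. Markers of other cells were near 0. The 2 T-cell markers with a row summed to 0 FPKM with DMSO and at most 0.342 FPKM with the inhibitor. The 5 myeloid markers summed to at most 0.798 and 1.08 FPKM, and the 5 stromal markers to at most 0.132 and 0.685 FPKM. The part of these differences in the results was not tested.

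MBD2, TET3 and MBD3 fell 1.81- to 2.098-fold with the inhibitor, TET2 fell slightly, MBD1 rose, and TDG, MBD4, TET1 and ZBTB38 were not called. The libraries measure RNA from bulk cultures, in which fewer cells expressing a gene and less RNA per cell cannot be told apart. Of the 9 members, all of which passed the filter on low counts, 1 was higher and 4 were lower at an adjusted p under 0.05 (edgeR quasi-likelihood test, adjusted over all 20783 tested genes). Among all tested genes 38.1% were higher and 27.3% lower, 65.4% in either direction, and among the 11838 tested genes with a mean of at least 1 FPKM 31.5% were higher and 41.6% lower. The members' share of lower genes, 44.4%, lay close to the share at that level. Their share of higher genes, 11.1%, was 1 gene of 9 and lay below the 31.5% and the 38.1%. No test compared these shares, and they are not read as a result about the members. Quantile normalization turned the split over all tested genes from 7918 higher and 5672 lower to 6025 higher and 7916 lower. The median log2 change was -0.09 over the 9 members, 0.14 over all tested genes and -0.09 over the tested genes with a mean of at least 1 FPKM. It moved from 0.14 to 0.31 for all genes under upper-quartile scaling and to -0.08 under quantile normalization, so changes of that size depend on the scaling. FPKM values of the groups did not overlap for 5 of the 9 members, where 71.7% of tested genes did not overlap.

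**Figure D1:**
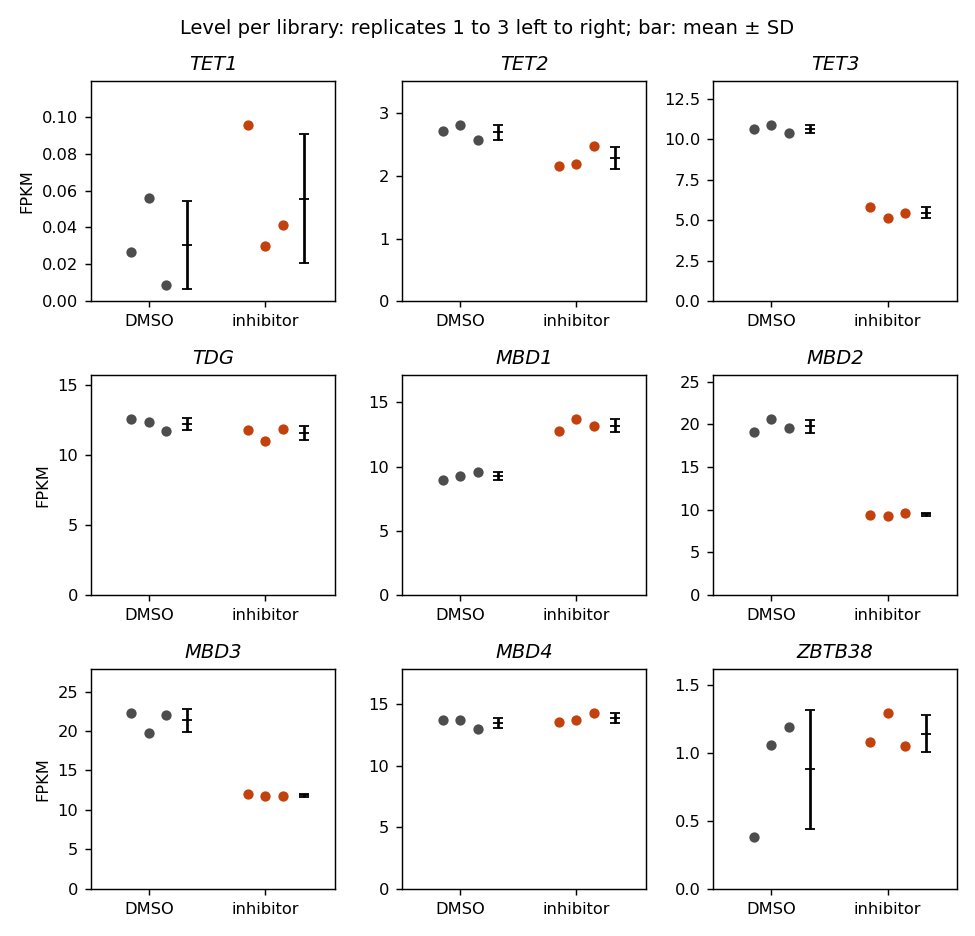
FPKM (vertical axes, each from 0) of the 9 members in the 3 DMSO libraries (grey) and the 3 inhibitor libraries (orange), with the mean and SD of each group as a black bar. TET2, TET3, MBD2 and MBD3 are lower and MBD1 is higher in every inhibitor library than in any DMSO library, while the groups overlap for TET1, TDG, MBD4 and ZBTB38.

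The promoter sequences shown are those of the 3 members that fell most and of the 1 that rose, since CpG is the substrate of the pathway itself. They are RefSeq windows (build GRCh38.p14) from 250 bases before to 50 bases after the start site nearest to the deposited 5′ end of the gene, written 5′ to 3′ on the strand of the gene, with every CpG in capitals. The start site matched the deposited end exactly for TET3, MBD2 and MBD3 and lay 7 bases away for MBD1.
MBD2 promoter, chr18:54224620-54224919, minus strand: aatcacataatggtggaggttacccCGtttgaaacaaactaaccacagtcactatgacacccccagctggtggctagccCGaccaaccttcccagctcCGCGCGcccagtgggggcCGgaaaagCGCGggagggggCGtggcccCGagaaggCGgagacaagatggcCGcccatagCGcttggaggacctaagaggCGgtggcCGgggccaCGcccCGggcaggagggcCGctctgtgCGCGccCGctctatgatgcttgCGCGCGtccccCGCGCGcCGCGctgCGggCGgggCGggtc
TET3 promoter, chr2:73984660-73984959, plus strand: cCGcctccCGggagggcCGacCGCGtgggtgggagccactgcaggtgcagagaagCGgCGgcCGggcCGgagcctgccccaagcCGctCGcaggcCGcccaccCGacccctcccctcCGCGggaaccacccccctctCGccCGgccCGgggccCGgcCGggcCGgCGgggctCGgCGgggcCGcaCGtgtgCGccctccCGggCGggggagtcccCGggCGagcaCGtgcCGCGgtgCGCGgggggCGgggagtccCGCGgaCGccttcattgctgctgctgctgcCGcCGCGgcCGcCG
MBD3 promoter, chr19:1592816-1593115, minus strand: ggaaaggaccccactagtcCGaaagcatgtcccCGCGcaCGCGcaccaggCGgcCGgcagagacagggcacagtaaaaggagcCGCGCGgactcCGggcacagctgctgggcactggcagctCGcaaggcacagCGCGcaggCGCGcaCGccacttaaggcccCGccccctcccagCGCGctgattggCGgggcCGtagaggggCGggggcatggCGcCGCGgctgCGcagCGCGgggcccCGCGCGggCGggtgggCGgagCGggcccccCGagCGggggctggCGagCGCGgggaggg
MBD1 promoter, chr18:50281718-50282017, minus strand: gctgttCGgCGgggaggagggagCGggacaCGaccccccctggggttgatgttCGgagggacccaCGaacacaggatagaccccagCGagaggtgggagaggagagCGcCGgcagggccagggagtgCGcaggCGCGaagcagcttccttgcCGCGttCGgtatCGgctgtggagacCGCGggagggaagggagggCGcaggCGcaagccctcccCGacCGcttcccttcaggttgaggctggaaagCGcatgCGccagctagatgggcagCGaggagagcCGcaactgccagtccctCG

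The TET3 window held 45 CpG, the MBD3 window 40, the MBD2 window 32 and the MBD1 window 27, against a median of 14 over the 35116 RefSeq windows of this length. All 4 are therefore above the median, the 3 that fell as well as the one that rose. The windows of TET3, MBD3 and MBD2 were also above the upper quartile of 28 CpG, and that of MBD1 was just under it. A link between CpG count and direction was not tested. Among the other members the windows of MBD4 and TDG held 29 and 22 CpG, that of TET2 held 13, that of TET1 10 and the window at the ZBTB38 deposited end 1. ZBTB38 has 10 annotated windows, of which the richest held 35 CpG, and a second TET2 window 1001 bases from the deposited end also held 35. Which of these starts is used in SU-DHL-8 was not measured. The E-box CACGTG, present in 7.26% of all windows, occurred at 2 places in the TET3 window printed above and was absent from those of MBD2, MBD3 and MBD1. It also occurred at 1 place each in the windows of TET2 and TDG nearest their deposited ends. The GC box GGGCGG (45% of windows, searched on both strands) occurred in the printed windows of TET3, MBD2 and MBD3 and not in that of MBD1. Of the windows not printed, those of TET2 and MBD4 nearest their deposited ends held it too. The E2F-type letters TTTGGCGC (0.652%) and TTTCCCGC (1.63%) were in none of the 9 windows at the deposited ends. The CCAAT box CCAAT (34.6%) was, of the printed windows, in that of MBD3 alone, and also in the windows of TDG, MBD4 and ZBTB38 nearest their deposited ends. These matches describe the letters of the windows only.

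Among the erasers, TET3 carried most of the TET transcripts. TET3 (ENSG00000187605, chromosome 2, 73984910 to 74108176, plus strand) is the family member that also acts in the zygote and carries a CXXC domain. The DMSO libraries measured 10.6, 10.9 and 10.4 FPKM and the inhibitor libraries 5.84, 5.12 and 5.47 FPKM. Every inhibitor library lay at or below 5.84, well under the lowest DMSO library. The level fell 1.95-fold (log2 change -0.96, SE 0.0594, edgeR adjusted p = 6.44e-07).

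TET2 (ENSG00000168769, chromosome 4, 105145875 to 105279816, plus strand) lacks a CXXC domain of its own, which sits in the neighbouring gene CXXC4. It stood at 2.72, 2.81 and 2.57 FPKM in the DMSO libraries and 2.16, 2.19 and 2.48 FPKM in the inhibitor libraries, with no overlap but a narrow gap between DMSO replicate 3 and inhibitor replicate 3. The fall was 1.19-fold (log2 change -0.25, SE 0.0645, edgeR adjusted p = 0.0066). TET2 kept its sign but was not called with upper-quartile scaling (-0.08, edgeR adjusted p = 0.321), with only genes at 1 FPKM or more in at least 3 libraries (-0.15, edgeR adjusted p = 0.0553), or with limma on log2 FPKM (-0.17 to -0.24 for pseudocounts of 1 to 0.1, adjusted p = 0.0539 to 0.0676).

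TET1 (ENSG00000138336, chromosome 10, 68560337 to 68694487, plus strand), the TET enzyme of embryonic stem cells, was close to undetected. It had 16, 43 and 6 estimated counts in the DMSO libraries and 57, 18 and 24 in the inhibitor libraries, equivalent to 1.5 to 14.25 read pairs per library. Its FPKM was 0.0304 ± 0.0238 and 0.0556 ± 0.0350 (SD, n = 3 each), with overlapping groups. The log2 change of 0.87 had a 95% interval of -0.66 to 2.41 (edgeR adjusted p = 0.29), and the sign turned under quantile normalization (-0.19, limma adjusted p = 0.0155). The value was 1.67 without DMSO replicate 2, 0.425 without DMSO replicate 3 and 0.228 without inhibitor replicate 1, uncalled in each (edgeR adjusted p = 0.082 to 0.815). In the main test a change in TET1 was not detectable at this depth, and the call under quantile normalization had the opposite sign.

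Summed over the 3 TET genes, the DMSO libraries held 13.4, 13.7 and 13.0 FPKM and the inhibitor libraries 8.10, 7.34 and 7.99 FPKM. The difference, -5.55 FPKM, came mostly from TET3. TET3 made up 79.6% ± 0.490 of the sum with DMSO and 70.1% ± 1.86 with the inhibitor, and TET2 20.2% ± 0.328 and 29.2% ± 2.24 (SD, n = 3 each, groups not overlapping, no test made). TET1 held at most 1.18% in any library. These shares use values per length from within 1 library, so the scaling between libraries does not enter them.

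**Figure D2:**
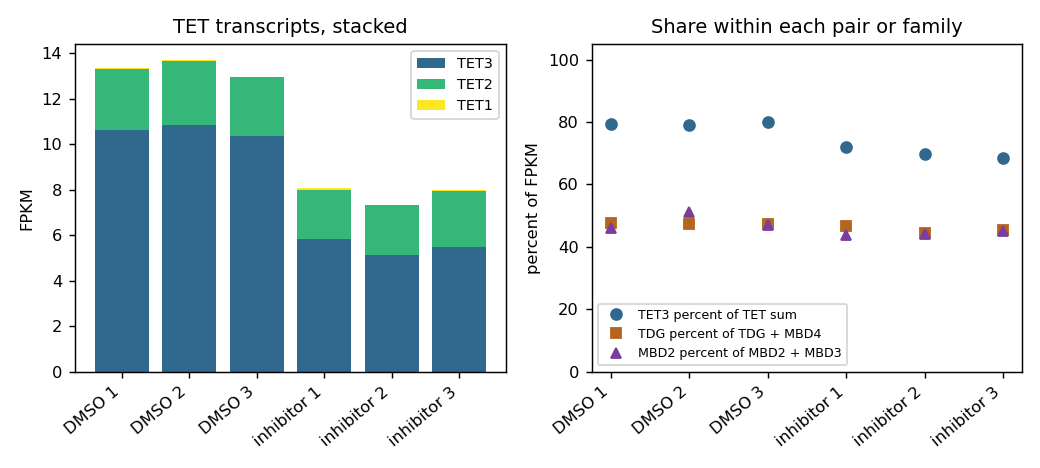
Left: FPKM of TET3, TET2 and TET1 stacked for each library (horizontal axis), where the sum drops from 13.0 to 13.7 FPKM with DMSO to 7.34 to 8.10 FPKM with the inhibitor. Right: TET3 as a percent of the TET sum (circles), TDG as a percent of TDG + MBD4 (squares) and MBD2 as a percent of MBD2 + MBD3 (triangles) in each library; TET3 is at 79.1 to 80.1% with DMSO and 68.4 to 72.1% with the inhibitor.

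The glycosylases stayed near their DMSO levels. TDG (ENSG00000139372, chromosome 12, 103965822 to 103987194, plus strand), which excises formyl- and carboxylcytosine as well as thymine from G-T mismatches, measured 12.6, 12.3 and 11.7 FPKM with DMSO and 11.8, 10.99 and 11.8 FPKM with the inhibitor. The groups overlapped, with DMSO replicate 3 inside the inhibitor range. The log2 change was -0.09 with a 95% interval of -0.21 to 0.04 (edgeR adjusted p = 0.198), and its sign turned under upper-quartile scaling (0.09), quantile normalization (0.10) and the filter at 1 FPKM (0.012). TDGP1, a pseudogene copy on the same chromosome that may share reads with TDG, measured 0.387 to 0.544 FPKM.

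MBD4 (ENSG00000129071, chromosome 3, 129430947 to 129440035, minus strand) joins a methyl-CpG binding domain to a glycosylase that removes thymine left by deamination of methylcytosine. It measured 13.8, 13.7 and 13.0 FPKM with DMSO and 13.6, 13.7 and 14.3 FPKM with the inhibitor. The log2 change was 0.03, with a 95% interval of -0.08 to 0.14 (edgeR adjusted p = 0.598). It was called higher in 3 settings: upper-quartile scaling (0.20, edgeR adjusted p = 0.00495), the filter at 1 FPKM (0.13, edgeR adjusted p = 0.0418) and quantile normalization (0.23, limma adjusted p = 0.00244). TDG made up 47.5% ± 0.227 of the summed FPKM of both glycosylases with DMSO and 45.4% ± 0.994 with the inhibitor (SD, n = 3 each, no test made).

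Among the readers, MBD2 had the largest fitted change, and its difference from the others was not tested. MBD2 (ENSG00000134046, chromosome 18, 54151606 to 54224669, minus strand) binds methylated CpG and brings NuRD to it. In the DMSO libraries it reached 19.1, 20.6 and 19.6 FPKM, and in the inhibitor libraries 9.44, 9.30 and 9.66 FPKM. All 3 inhibitor libraries lay far below the lowest DMSO library. The level fell 2.098-fold (log2 change -1.07, SE 0.048, edgeR adjusted p = 9.99e-08).

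MBD3 (ENSG00000071655, chromosome 19, 1573596 to 1592865, minus strand), the NuRD subunit whose mammalian form binds methylated CpG poorly, was at a similar level. It measured 22.3, 19.7 and 22.01 FPKM with DMSO and 12.1, 11.8 and 11.7 FPKM with the inhibitor, with no overlap. The level fell 1.81-fold (log2 change -0.85, SE 0.0548, edgeR adjusted p = 8.36e-07). MBD2 made up 48.1% ± 2.69 of the summed FPKM of MBD2 and MBD3 with DMSO and 44.4% ± 0.714 with the inhibitor (SD, n = 3 each, no test made). The difference of -3.72 percentage points was -2.196 without DMSO replicate 2, the library with the highest MBD2 share.

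MBD1 (ENSG00000141644, chromosome 18, 50266882 to 50281774, minus strand), which binds methylated CpG and can recruit H3K9 methyltransferases, was the 1 member that rose. It went from 8.97, 9.28 and 9.58 FPKM in the DMSO libraries to 12.7, 13.7 and 13.1 FPKM in the inhibitor libraries. Every inhibitor library was above every DMSO library. The rise was 1.42-fold (log2 change 0.50, SE 0.0469, edgeR adjusted p = 9.88e-06). MBD1 was thus the lowest of the 3 MBD1 to MBD3 transcripts with DMSO and the highest with the inhibitor.

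ZBTB38 (ENSG00000177311, chromosome 3, 141324213 to 141449792, plus strand), a zinc finger repressor that binds methylated CpG, was expressed at a low level. It measured 0.382, 1.06 and 1.19 FPKM with DMSO and 1.08, 1.29 and 1.05 FPKM with the inhibitor. DMSO replicate 1 stood apart at 338 estimated counts, where the other 2 DMSO libraries had 1213 and 1216. The log2 change of 0.37 had a 95% interval of -0.38 to 1.11 (edgeR adjusted p = 0.359), and without DMSO replicate 1 it was 0.002 (edgeR adjusted p = 0.99), and quantile normalization turned its sign (-0.06). The cause of the low value in that library was not tested.

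**Figure D3:**
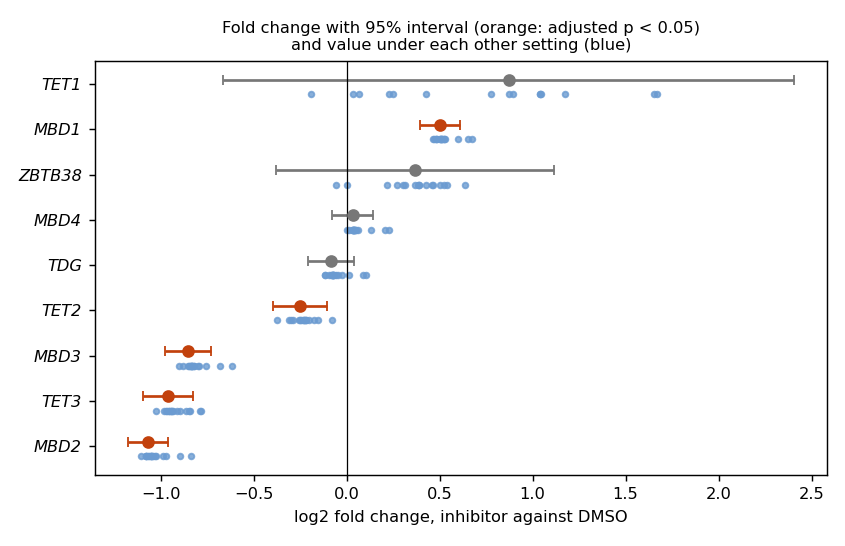
Log2 fold change of each member, inhibitor against DMSO (horizontal axis), with its 95% interval (large points, orange where the adjusted p is under 0.05, grey otherwise) and the value under each other processing setting (small blue points). MBD2, TET3 and MBD3 lie between -1.07 and -0.85 and MBD1 at 0.50, and all 4 keep their side of 0 in every setting shown, while TDG, TET1 and ZBTB38 have settings on both sides.

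In the order of their levels with DMSO, MBD3 (21.3 ± 1.42 FPKM) and MBD2 (19.8 ± 0.801) came first. MBD4 (13.5 ± 0.417), TDG (12.2 ± 0.458), TET3 (10.6 ± 0.237) and MBD1 (9.28 ± 0.307) formed a middle group. TET2 (2.70 ± 0.119), ZBTB38 (0.877 ± 0.434) and TET1 (0.0304 ± 0.0238) were lowest. MBD3 and MBD2 overlapped over the DMSO libraries, and no other neighbours in that order did. With the inhibitor the order became MBD4 (13.9 ± 0.407 FPKM), MBD1 (13.2 ± 0.493), MBD3 (11.9 ± 0.189), TDG (11.5 ± 0.476), MBD2 (9.46 ± 0.184), TET3 (5.47 ± 0.358), TET2 (2.28 ± 0.176), ZBTB38 (1.14 ± 0.135) and TET1 (0.0556 ± 0.0350). MBD4 and MBD1 overlapped there, as did MBD3 and TDG.

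Of the 9 genes whose deposited intervals overlap the members or lie within 1 kb of them, 5 were tested and 3 were called, all of them lower. Among all tested genes 65.4% were called and 27.3% were lower, and among those with a mean of at least 1 FPKM 41.6% were lower. No test compared these counts. IFT122, an intraflagellar transport gene on the opposite strand of chromosome 3 whose interval covers all 9089 bases of MBD4, fell from 1.92 ± 0.0516 to 1.07 ± 0.0399 FPKM (SD, n = 3 each, log2 change -0.85, edgeR adjusted p = 1.37e-06), while MBD4 was not called. The libraries were made with dUTP marking of strand, per the labels' protocols, but the counting's use of strand is not stated in the labels, so reads of the pair may not be told apart. CXXC1, a CpG-binding subunit of an H3K4 methyltransferase complex located upstream of MBD1 on the same strand, fell from 23.5 ± 0.0866 to 19.7 ± 0.248 FPKM (log2 change -0.26, edgeR adjusted p = 0.000428), while MBD1 rose. It was not called under upper-quartile scaling (edgeR adjusted p = 0.0952) or quantile normalization (limma adjusted p = 0.356). CFAP53, a cilia gene downstream of MBD1, fell from 1.21 ± 0.0328 to 0.602 ± 0.183 FPKM (log2 change -1.005, edgeR adjusted p = 0.00868). C12orf73, next to TDG on the opposite strand, measured 2.43 ± 0.364 and 2.13 ± 0.0439 FPKM (edgeR adjusted p = 0.223). The other 5 overlapping rows, beside TET1, TET3, TDG, MBD3 and ZBTB38, had mean levels of at most 0.303 FPKM in either group.

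Of 10 other genes tested of methyl-CpG reading and of methyl-CpG binding domain proteins, 2 were higher, 4 lower and 4 not called, with a median log2 change of -0.13. With 65.4% of all tested genes called, that count is near the background. UHRF1, which reads hemimethylated CpG for DNMT1, fell from 73.4 ± 0.843 to 50.1 ± 1.504 FPKM (log2 change -0.56, edgeR adjusted p = 2.44e-06). ZBTB4, a zinc finger reader related to ZBTB38, fell from 1.98 ± 0.109 to 1.45 ± 0.147 FPKM (log2 change -0.45, edgeR adjusted p = 0.00691), a call lost under upper-quartile scaling (-0.28, edgeR adjusted p = 0.0629). Upper-quartile scaling gave 3 higher and 1 lower for the list (median 0.043), so its balance depends on the scaling. ZBTB33, the reader Kaiso, rose from 9.58 ± 0.151 to 12.1 ± 0.882 FPKM (edgeR adjusted p = 0.000402). SETDB1, an H3K9 methyltransferase with an MBD-type domain that was named after its values were seen, measured 16.7 ± 0.105 and 18.4 ± 0.968 FPKM (log2 change 0.13, edgeR adjusted p = 0.0352). It lost its call without DMSO replicate 1, 2 or 3 or inhibitor replicate 1 or 3 (edgeR adjusted p = 0.0613 to 0.127). The call was also lost with a replicate block (edgeR adjusted p = 0.0682) and with no filter on low counts (edgeR adjusted p = 0.0628). These settings left 1 gene of the list higher. With inhibitor replicate 1 alone SETDB1 was not called either (log2 change 0.14).

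The germline paralogs of MBD3 behaved unlike MBD3. MBD3L2, MBD3L3, MBD3L4 and MBD3L5 lie together on chromosome 19 and encode proteins related to MBD2 and MBD3 without the methyl-CpG binding domain. MBD3L4 had 0 counts in every DMSO library and 3.16, 3.75 and 3.37 FPKM with the inhibitor, at least 48-fold higher (edgeR adjusted p = 2.28e-06). MBD3L2 rose from 0 to 2.92 ± 0.925 FPKM, at least 41.7-fold, and MBD3L5 from 0 to 1.65 ± 0.732 FPKM, at least 23.2-fold. Bounds are set against a floor of 12 estimated counts over the DMSO group and cover counting error only. MBD3L3 had 11 counts over the DMSO libraries and then 3.95 ± 0.607 FPKM (edgeR adjusted p = 3.08e-07). All 4 genes tested were higher and none lower, where 38.1% of all tested genes were higher. However, MBD3L2, MBD3L4 and MBD3L5, with 0 DMSO counts, could pass the filter only through the inhibitor libraries and could not be called lower. MBD3L3, with 5, 3 and 3 DMSO counts, was under the filter minimum of 10 there and also passed only through the inhibitor libraries. The count of 4 higher genes therefore follows from the filter and is not set against the 38.1% as a result. These near-identical copies may also share reads, so the level of each is uncertain. A further copy, MBD3L2B, named after its values were seen, had 0 FPKM in every DMSO library and 7.31, 3.41 and 4.72 FPKM with the inhibitor. MBD3L1, the fifth gene of this list, was not analysed here. The RefSeq promoter windows of these 4 genes held 5 to 7 CpG, fewer than those of any MBD gene above. The start site of the MBD3L3 window (7058676) differs from the deposited 5′ end of that gene (7060200), and which start is used was not measured.

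Of 12 NuRD genes tested, the partners of MBD2 and MBD3, 2 were higher, 5 lower and 5 not called. Their median log2 change was -0.10, against 0.14 over all tested genes and -0.09 over those with a mean of at least 1 FPKM. Of all tested genes 65.4% were called. Upper-quartile scaling turned the NuRD counts to 5 higher and 3 lower (median 0.07) and quantile normalization to 5 higher and 4 lower (median 0.105). RBBP7, a histone-binding subunit, fell from 23.8 ± 0.208 to 12.01 ± 0.687 FPKM (log2 change -0.99, edgeR adjusted p = 3.29e-07). GATAD2B, the subunit that links the MBD protein to the remodeller, fell from 18.7 ± 0.656 to 12.02 ± 0.774 FPKM (log2 change -0.64, edgeR adjusted p = 8.95e-06). MTA1 rose from 22.1 ± 1.08 to 29.7 ± 0.804 FPKM (log2 change 0.42, edgeR adjusted p = 2.7e-05). The remodelling ATPase CHD4, named after its values were seen, measured 45.6 ± 0.523 and 46.0 ± 1.74 FPKM (log2 change 0.01, 95% interval -0.08 to 0.10, edgeR adjusted p = 0.912).

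Of 17 base excision repair genes tested that act after or beside TDG and MBD4, 6 were higher, 9 lower and 2 not called (median log2 change -0.28). Among all tested genes 38.1% were higher, 27.3% lower and 65.4% called. Among those with a mean of at least 1 FPKM, 31.5% were higher and 41.6% lower. The lower genes were led by FEN1, the flap endonuclease of replication and long-patch repair, which fell from 65.5 ± 3.63 to 12.9 ± 1.47 FPKM (log2 change -2.34, edgeR adjusted p = 3.88e-08). NEIL3, a glycosylase of proliferating cells, fell from 13.8 ± 0.163 to 3.35 ± 0.420 FPKM (log2 change -2.05, edgeR adjusted p = 1.14e-07), and the replicative ligase LIG1 from 6.99 ± 0.444 to 2.2 ± 0.137 FPKM (log2 change -1.66, edgeR adjusted p = 6.5e-08). Among the 6 higher genes, named after their values were seen, were the ligase LIG3 (2.35 ± 0.0987 to 4.80 ± 0.252 FPKM) and the abasic site nuclease APEX1 (87.95 ± 2.56 to 135.5 ± 4.19 FPKM), each with an edgeR adjusted p of at most 1.62e-06.

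Of 13 cofactors and regulators of the TET enzymes tested, 6 were higher, 6 lower and 1 not called, where 38.1% of all tested genes were higher and 27.3% lower. Of tested genes with a mean of at least 1 FPKM, 31.5% were higher and 41.6% lower. The median log2 change was -0.16. It was positive without DMSO replicate 1, 2 or 3 (0.025, 0.075 and 0.117), without inhibitor replicate 2 (0.075) and with no filter on low counts (0.091). Those settings tested 14 genes, DPPA3 included, so the median there is over a different set of genes. With 13 genes tested it was positive only under upper-quartile scaling (0.013), and it was negative without inhibitor replicate 1 or 3 (-0.057 and -0.214). The median gives no direction. GADD45G, of a family linked to active demethylation, had 8 counts over the DMSO libraries and then 1.27, 0.824 and 1.502 FPKM with the inhibitor (edgeR adjusted p = 0.000363). With 0, 0 and 8 DMSO counts, under the filter minimum of 10, GADD45G could pass the filter only through the inhibitor libraries. Its place among the 6 higher genes is limited by that. GADD45A rose from 9.15 ± 0.0449 to 17.8 ± 1.246 FPKM (log2 change 0.95, edgeR adjusted p = 2.17e-06). QSER1, reported to protect bivalent promoters together with TET1, fell from 9.89 ± 0.348 to 4.99 ± 0.480 FPKM (log2 change -0.99, edgeR adjusted p = 1.61e-06). The next 2 genes were named after their values were seen. OGT, the O-GlcNAc transferase that binds TET2 and TET3, rose from 68.9 ± 1.10 to 115 ± 6.44 FPKM (edgeR adjusted p = 4.4e-07), and IDH1, a source of the TET cosubstrate 2-oxoglutarate, from 3.78 ± 0.0729 to 6.85 ± 0.294 FPKM (edgeR adjusted p = 3.89e-06). DPPA3 was too low for the main test, with 0 counts in the DMSO libraries and 36 over the inhibitor libraries.

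**Figure D4:**
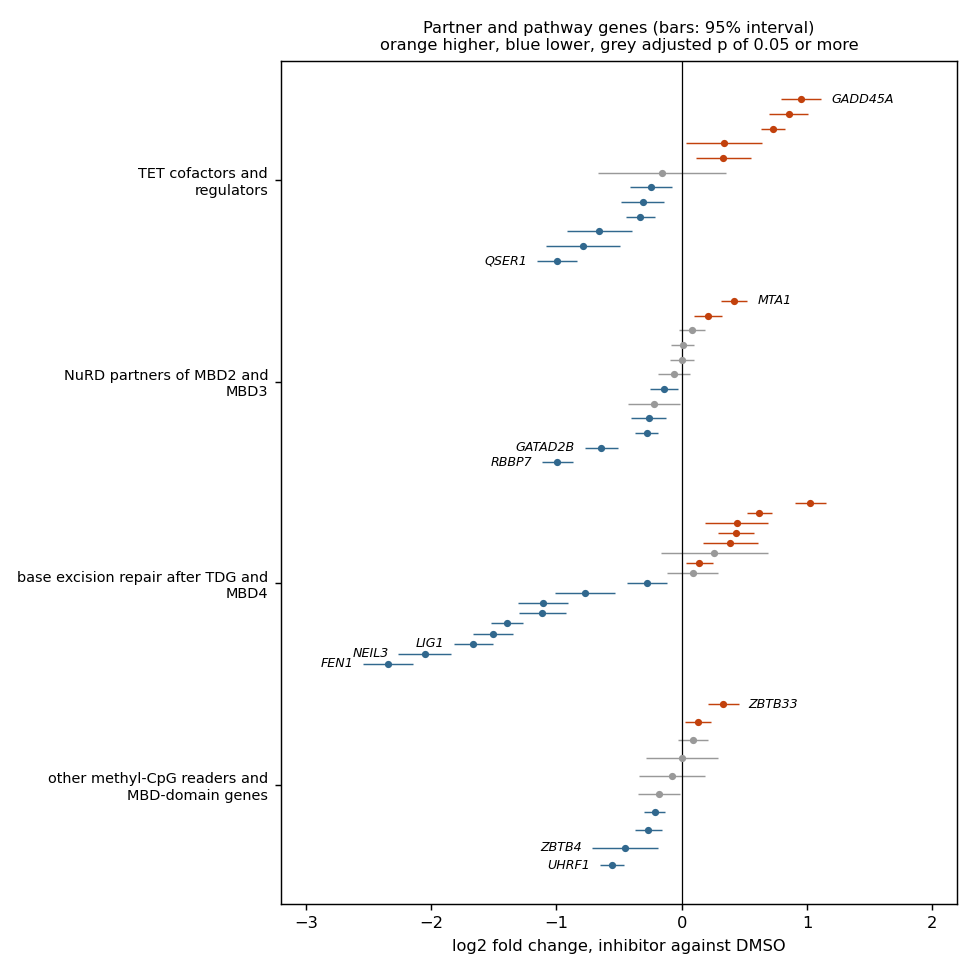
Log2 fold change with 95% interval (horizontal axis) for each tested gene of 4 lists (vertical axis), orange for higher, blue for lower and grey for an adjusted p of 0.05 or more; GADD45G is left out because of its low DMSO counts. Base excision repair shows the widest spread, from FEN1 at -2.34 to LIG3 at 1.03, and most NuRD genes lie close to 0.

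For the 2 members with the largest change, the genes with the most similar profile over the 6 libraries were sought among 10559 genes at 1 FPKM or more in both groups, by the Euclidean distance of centred log2(FPKM + 0.5). Nearest to MBD2 were LARS2 (distance 0.0418), MAN1A1 (0.0537) and TERF2 (0.0537), where the median gene was at 1.17. TERF2, a telomere-binding protein, fell from 23.3 ± 0.835 to 11.5 ± 0.279 FPKM and LARS2, the mitochondrial leucyl-tRNA synthetase, from 4.61 ± 0.193 to 2.03 ± 0.00570 FPKM. Nearest to TET3 were ZNF317 (0.0419), LEMD3 (0.0549) and PRELID1 (0.0616), against a median of 1.04. ZNF317, a zinc finger gene, fell from 24.5 ± 0.332 to 13.1 ± 0.783 FPKM. The distances are a description over 6 libraries that differ mainly by treatment, and 41.6% of tested genes with a mean of at least 1 FPKM were lower.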

How the data were processed

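RNA-seq of 6 SU-DHL-8 libraries was used. The tools listed, per the submitters' processing notes, are HISAT2 2.2.1, cutadapt 1.9, edgeR, StringTie 2.1.6 and DESeq2, without their roles. The notes name the mouse build mm10, but 34105 of the 35974 deposited gene IDs match human GENCODE release 29, and 99.98% of those overlap their GRCh38 position, so coordinates are read as GRCh38. Per the file headers, each gene has, in every library, an FPKM value and an estimated count, both deposited by the authors. The deposited estimated counts are whole numbers with a peak at 4 (1319.8 genes per library, against 725.8 at 3 and 474.5 at 5), so 4 counts were read as about 1 read pair. Sharing between overlapping genes is not defined there.

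Libraries were grouped by title. Counts were tested with edgeR 4.0.16 (R 4.3.3, filterByExpr, TMM factors 0.981 to 1.021, quasi-likelihood test, two-sided, Benjamini-Hochberg over 20783 genes). The filter, with a minimum count of 10, and the test used the counts as deposited, not divided by 4. SE is the log2 change over the square root of F. No fold is printed for genes with 1 to 12 counts over the DMSO group. No 2 libraries were identical. The members and gene lists were chosen with earlier results of these data known. Named were the members, DNMT1, up to 3 called genes per list with the largest change, neighbours within 1 kb and the 3 nearest profiles. Alternatives used DESeq2 1.42.0 and limma 3.58.1. The test was run on simulated data first. Some genes of the lists are not reported here and entered no list count or sum.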

Additional observations from a re-analysis of the deposited data

How the results depend on the processing

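The test was repeated under 17 other settings. MBD1, MBD2, MBD3 and TET3 kept their direction and call in all of them, with log2 changes of 0.47 to 0.67, -1.11 to -0.84, -0.90 to -0.62 and -1.03 to -0.79. TET2 stayed negative in all 17 (-0.38 to -0.08) and lost its call in 5. The sign of TDG turned with only genes at 1 FPKM or more (0.012), with upper-quartile scaling (0.087) and with quantile normalization (0.102). Quantile normalization, chosen after seeing the data, also turned TET1 (-0.19) and ZBTB38 (-0.06). It called TET1 lower (limma adjusted p = 0.0155), so that 5 members were lower rather than 4. TET1 was tested in 15 of the 17 settings. With counts divided by 4 it did not pass the filter, and 16200 genes and 8 members were tested. There 6595 genes were higher and 5303 lower, so the share of called genes depends on the count scale. MBD4 was called higher in the 3 settings that turned TDG, so that 2 members were higher rather than 1. The cause was not tested. With only genes at 1 FPKM or more, 12395 genes were tested instead of 20783, and 4826 were higher. Leaving out each library in turn gave 7481 to 8065 higher and 5263 to 5434 lower genes and left 1 member higher and 4 lower. Inhibitor replicate 1 alone, the library labelled GSK3685032, gave the same counts of members, but its spread comes from the DMSO libraries alone and the lone library is assumed to vary like them. Of 440 values for 26 other genes, 428 kept their direction and call and 0 changed sign. Shares within the TET family could not be recomputed from counts per kilobase, since gene lengths were not used here. Low counts limit TET1 and, in DMSO replicate 1, ZBTB38.

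Same-numbered libraries did not deviate together (correlations of 0, 0.021 and 0.003), so the numbers were not taken as pairs. With a replicate block, 7448 genes were higher and 5368 lower, and 1 member was higher and 4 lower, with log2 changes of -0.97 for TET3, -1.07 for MBD2, -0.85 for MBD3, 0.50 for MBD1 and -0.25 for TET2.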
